A study of Mus musculus with 8 samples.

Results

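The genes described here copy DNA and supply its building blocks. The set holds 49 genes listed by name for their function, covering origin licensing, the replisome, the clamp loader, deoxynucleotide synthesis, chromatin assembly behind the fork and control of S phase entry. A member was read from the probe set that carries its symbol and no other symbol, and the brightest such probe set over all arrays was used. That gave 47 members of the 22180 genes tested, while Rfc4 and Ccne2 had no probe set of their own and were left out of all counts. Livers came from 8 mice of the C57BL/6N strain at 27 days of age, with 1 array of total RNA per mouse. The 4 knockout mice had the genotype Albumin-Cretg/wt:Sco1fl/fl, in which Cre from the albumin promoter, a promoter of hepatocytes, acts on floxed alleles of the copper chaperone gene Sco1. Which cells lost Sco1 was not measured by these arrays. The titles give the 4 wild-type mice as Sco1fl/fl, but their genotype labels name 2 kinds of control. Wild-type mice 1 and 3 were Albumin-Cretg/wt:Sco1fl/wt, and mice 2 and 4 were Albumin-Crewt/wt:Sco1fl/fl, so every animal carried at least 1 floxed allele.

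Replication starts when the origin recognition complex, Cdc6 and Cdt1 load a ring of 6 MCM subunits onto DNA in G1. In S phase the Dbf4-dependent kinase Cdc7 and cyclin E kinase activate that ring with Cdc45 and the GINS complex, primase and polymerases alpha, delta and epsilon extend the strands, and PCNA holds the polymerases on DNA. Transcription of most of these genes is switched on at the end of G1 by E2F factors once RB family proteins release them. In the mouse, hepatocytes still divide in the first weeks after birth and become polyploid around weaning, after which few cells of the adult liver enter S phase.

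Most replication genes were lower in the knockout livers, by modest amounts. Of the 47 measured members 46 had a negative difference, against 42.8% of all genes, and the exception was the kinase gene Cdc7. The median difference was -0.24 log2 units, which puts the median member at 84.5% of its wild-type level, beside a median of 0.03 over all genes and -0.02 over the brighter 11090 genes, where 45 of the members lie. Of those brighter genes 55.5% had a negative difference, against 45 of the 45 members among them. Orc1 and Cdc7 are dimmer and lie outside the brighter genes. In the 8 arrays of a whole organ, fewer cells in S phase and less RNA per cell cannot be told apart. At an adjusted p under 0.05, 3 members fell, Prim1, Pole and Mcm3 (limma with Benjamini-Hochberg adjustment over all genes), none rose and 44 did not pass; over all genes 0.717% were called lower and 0.433% higher, and of the brighter genes 1.18% were called lower. At an unadjusted p under 0.05, 25 members were lower and none higher, where 8.06% of all genes were lower and 8.61% higher, and 13.2% of the brighter genes were lower. In 15 members every knockout mouse lay below every wild-type mouse, which held for 5.49% of all genes in that direction and for 5.26% in the other, where no member lay, and for 9.5% of the brighter genes in the lower direction. The number of calls changed with every array left out. Leaving out knockout array 1 or 3, or wild-type array 3, gave 2 calls. Leaving out knockout array 4 or wild-type array 1 gave 1 call, and dropping knockout array 2 or wild-type arrays 2 or 4 gave 0. The sign was steadier: at least 44 of the 47 members were negative with any 1 array left out.

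**Figure D1:**
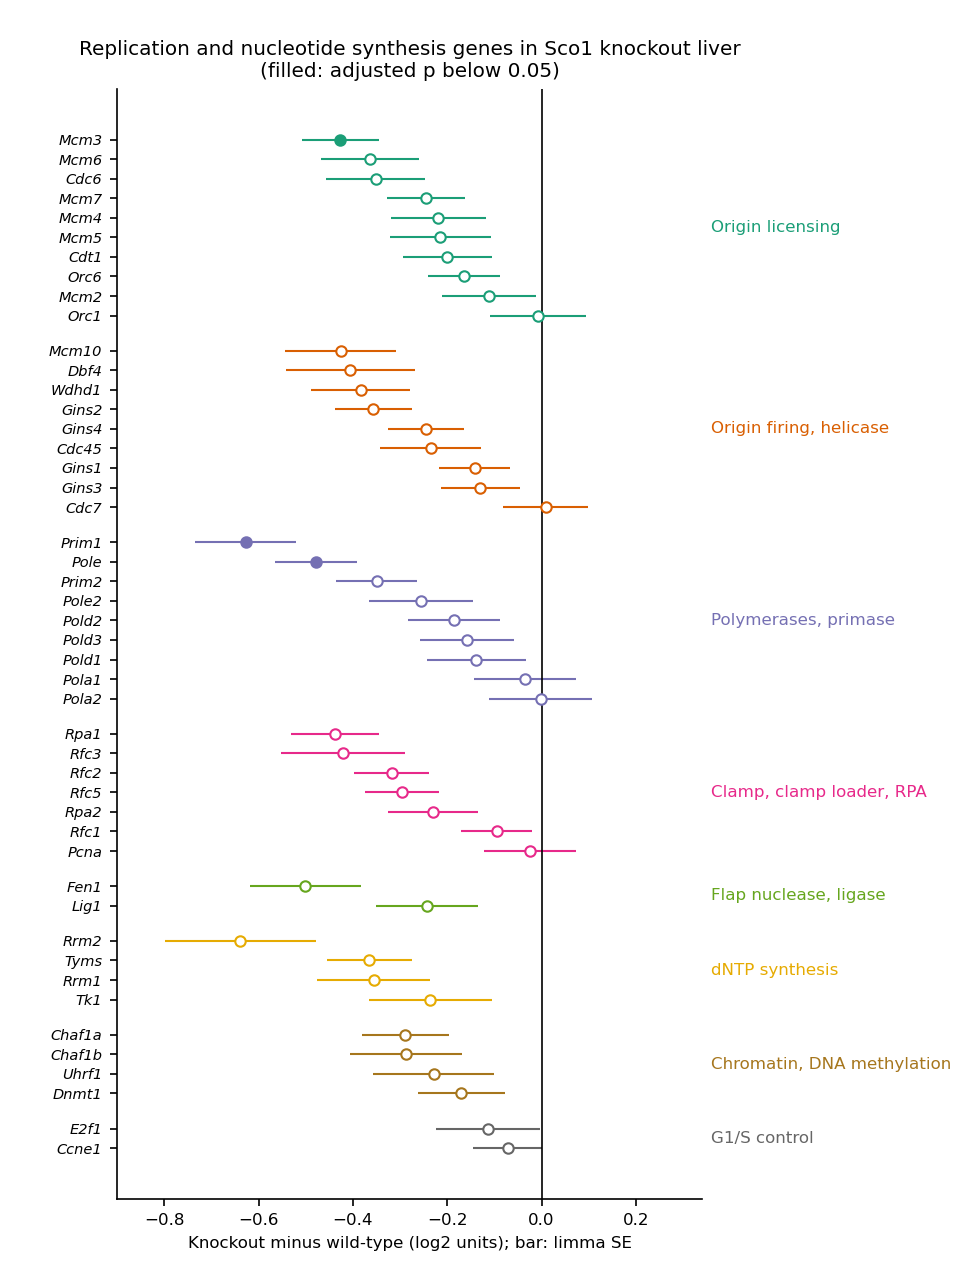
Difference between knockout and wild-type livers for the 47 measured members, in log2 units on the horizontal axis, grouped by role, with bars for the limma standard error. Filled points mark Prim1, Pole and Mcm3, which passed at an adjusted p under 0.05, and 46 of 47 points lie left of 0.

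Promoter sequence was examined because E2F regulation is the textbook feature of this gene set. Windows of 300 bases, from 250 bases before to 50 bases after a start site, were taken from RefSeq (GRCm38.p6) and matched 41 of the 49 listed members with 50 windows. They were searched on both strands for an 8-base E2F motif in 4 forms (TTTCCCGC, TTTCGCGC, TTTGCCGC and TTTGGCGC), for the same motif without its first T (7 bases, which the longer forms contain), for the NF-Y box CCAAT, and for the CHR element (TTTGAA or TTCGAA), which mitotic promoters use. The 8-base E2F motif was found in 16 of 50 member windows (32%) and in 2.26% of all 32851 windows. The 7-base form was found in 62% of member windows and 9.57% of all windows. CCAAT was present in 52% of member windows and 37.4% of all windows, and the CHR element in 22% and 19.2%. Some genes have overlapping windows, so windows are not independent. Among origin licensing genes the 8-base motif was in the windows of 7 of 9 genes, and none of the 4 nucleotide synthesis genes had it. The stretches below show the motif in the window with the most matches (Mcm6) and in one with several (Mcm5). They also show members that fell (Mcm3, Prim1), further members (Cdc6, Rrm1) and Orc1, a dim member whose level hardly differed. Capitals mark E2F motifs of 8 or 7 bases on either strand.
Mcm6, chr1:128359736-128359825, minus strand: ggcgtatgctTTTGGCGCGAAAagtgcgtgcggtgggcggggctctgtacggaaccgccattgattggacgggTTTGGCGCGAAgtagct
Mcm5, chr8:75109334-75109373, plus strand: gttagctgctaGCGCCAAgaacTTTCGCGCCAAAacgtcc
Mcm3, chr1:20820264-20820293, minus strand: GCGGGAAAacttgggaagtTTTGGCGCCAA
Cdc6, chr11:98907996-98908035, plus strand: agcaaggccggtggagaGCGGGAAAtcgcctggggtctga
Orc1, chr4:108579404-108579443, plus strand: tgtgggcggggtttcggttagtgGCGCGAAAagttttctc
Prim1, chr10:128015175-128015214, plus strand: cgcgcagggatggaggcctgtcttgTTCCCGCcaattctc
Rrm1, chr7:102441600-102441659, plus strand: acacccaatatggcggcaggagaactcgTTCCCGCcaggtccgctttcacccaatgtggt

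The members with and without the motif had similar median differences, which were not tested. The 16 measured members with the 8-base motif had a median difference of -0.22 log2 units, and the 24 without it a median of -0.26. For the 7-base form the order was reversed, with -0.24 in the 26 members that had it and -0.21 in the 14 without it. Orc1 stood at -0.0074 ± 0.10 (SE) with the motif, and Rpa1 at -0.44 ± 0.09 without either E2F form in its window. Orc1 averaged 5.20 log2 units in each group and lies outside the brighter genes. A match is a description of the letters in the window and does not show binding.

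**Figure D2:**
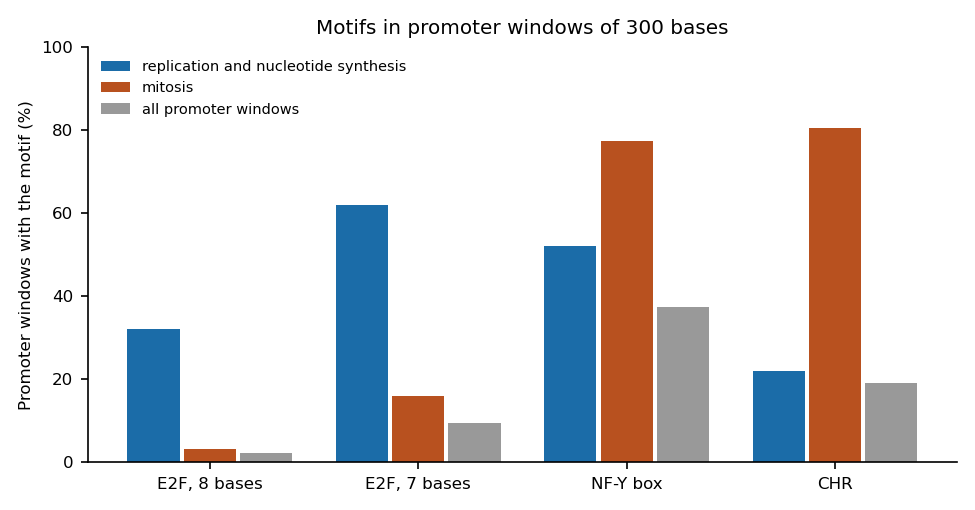
Share of promoter windows of 300 bases that hold each motif, in percent, for the replication and nucleotide synthesis genes (50 windows), the mitosis list (31 windows) and all 32851 windows. The E2F bars are tallest for the replication genes (32% and 62%), and the CHR bar is tallest for the mitosis list (80.6%).

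Origin licensing genes were lower in all 10 cases by sign, with a median difference of -0.22. Mcm3, a subunit of the MCM ring, read 7.53, 7.47, 7.44 and 7.49 log2 units in knockout mice 1 to 4 and 7.89, 7.97, 7.74 and 8.03 in wild-type mice 1 to 4. The groups did not overlap, and the knockout values had an SD of 0.04. Mcm3 fell by 0.43 ± 0.08 (SE, 4 mice per group), to 74.4% of its wild-type level, with a limma adjusted p = 0.0344. Mcm6, another subunit of the ring, read 8.42, 8.69, 8.56 and 8.74 in the knockout mice and 9.09, 9.07, 8.72 and 8.99 in the wild-type mice. Wild-type mouse 3 lay just below knockout mouse 4, so the groups overlapped, and the difference of -0.36 ± 0.10 did not pass (adjusted p = 0.121 by limma). The loader Cdc6 stood at -0.35 ± 0.11 and the remaining ring subunits Mcm7, Mcm4, Mcm5 and Mcm2 at -0.24, -0.22, -0.21 and -0.11. Mcm7 had separate groups, and the other subunits named in that sentence overlapped. The licensing factor Cdt1 stood at -0.20 ± 0.09 and the origin recognition subunit Orc6 at -0.16 ± 0.08, while Orc1 was nearly level, as given above. The Mcm3 call was kept without wild-type mouse 3 (adjusted p = 0.0376) and lost without any other single array, with adjusted p of up to 0.106. It was also lost when the table was quantile normalized again (adjusted p = 0.0576).

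Genes that fire origins and build the active helicase had no member past the threshold, and 5 were lower at an unadjusted p under 0.05. Their median difference was -0.24, and 8 of 9 were negative. At that p, 8.06% of all genes and 13.2% of the brighter genes were lower. Gins2, a subunit of the GINS complex, read 7.38, 7.41, 7.53 and 7.53 in the knockout mice and 7.88, 7.87, 7.65 and 7.87 in the wild-type mice. All knockout mice lay below the wild-type mice, of which mouse 3 was closest to them, and the difference of -0.36 ± 0.08 narrowly missed the threshold (adjusted p = 0.0633 by limma, n = 4 each). Wdhd1, which ties polymerase alpha to the helicase, read 7.08, 7.24, 6.99 and 7.16 in the knockout mice and 7.24, 7.58, 7.48 and 7.71 in the wild-type mice. Its groups were separated by a gap of less than 0.01 between knockout mouse 2 and wild-type mouse 1, with a difference of -0.38 ± 0.10 (adjusted p = 0.109 by limma). Mcm10, which helps start unwinding, stood at -0.43 ± 0.12, and Dbf4, the activating partner of Cdc7, at -0.41 ± 0.14. Cdc7 itself stood at 0.0089 ± 0.09, with a mean of 5.56 log2 units in each group, outside the brighter genes. Mcm10 passed without knockout mouse 1 (adjusted p = 0.0355), that mouse having the highest knockout value, 7.48. Gins4 had separate groups at -0.24 ± 0.08, Cdc45 stood at -0.24, Gins1 at -0.14 and Gins3 at -0.13.

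The polymerase and primase genes held the other members that fell, and also some that were level. Prim1, the catalytic subunit of primase, read 7.16, 6.84, 7.25 and 6.81 in the knockout mice and 7.59, 7.59, 7.69 and 7.70 in the wild-type mice. The wild-type mice were tightly grouped, and knockout mice 2 and 4 were lowest. Prim1 fell by 0.63 ± 0.11 (SE, n = 4 each; adjusted p = 0.0248 by limma), to 64.7% of the wild-type level. Pole, the catalytic subunit of the leading strand polymerase, read 7.09, 7.03, 7.18 and 7.10 in the knockout mice and 7.63, 7.55, 7.39 and 7.73 in the wild-type mice. The groups did not overlap, and Pole fell by 0.48 ± 0.09, to 71.8% (adjusted p = 0.0308 by limma). Prim2, the partner subunit of primase, also had separate groups at -0.35 ± 0.09 (adjusted p = 0.0792). Pole2 stood at -0.25 ± 0.11, and the polymerase delta subunits Pold2, Pold3 and Pold1 at -0.19, -0.16 and -0.14. The polymerase alpha genes, which work in 1 complex with primase, were level, Pola1 at -0.04 ± 0.11 and Pola2 at -0.0014 ± 0.11. Leaving out knockout array 2 ended the Prim1 call (adjusted p = 0.0564), as did leaving out wild-type array 1, 2, 3 or 4 (0.0504, 0.0616, 0.0753 and 0.0738). The Pole call was kept without wild-type mouse 3 (0.0302) and lost without any other single array (up to 0.0872). A dimmer, unused probe set of Pole stood at 0.07 ± 0.10, and averaging both gave -0.21 with adjusted p = 0.2.

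The single-strand binding protein and the clamp loader were lower by sign, while the clamp was level. Rpa1, the large subunit of replication protein A, read 8.32, 8.57, 8.60 and 8.66 in the knockout mice and 8.99, 9.10, 8.86 and 8.94 in the wild-type mice. Knockout mouse 1 was lowest, and the groups did not overlap. The difference of -0.44 ± 0.09 put the knockout level at 73.9% and missed the threshold (adjusted p = 0.0525 by limma, n = 4 each). A dim, unused probe set of Rpa1 stood at -0.02 ± 0.11, and the mean of both at -0.23 with adjusted p = 0.203. Rfc2, a clamp loader subunit, read 7.76, 7.83, 7.91 and 7.80 in the knockout mice and 8.19, 8.19, 7.98 and 8.21 in the wild-type mice. Again wild-type mouse 3 was nearest to the knockout mice, and the difference was -0.32 ± 0.08 (adjusted p = 0.0852 by limma). Rfc5 and Rfc3 had separate groups too, at -0.30 ± 0.08 and -0.42 ± 0.13, and Rpa2 stood at -0.23 ± 0.10. The large loader subunit Rfc1 stood at -0.10 ± 0.07. Pcna, the clamp itself and a common marker of S phase, read 10.49, 10.39, 10.64 and 10.70 in the knockout mice and 10.67, 10.71, 10.42 and 10.51 in the wild-type mice. Its groups were interleaved, with a difference of -0.03 ± 0.10.

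Both enzymes that finish the lagging strand were lower by sign. Fen1, the nuclease that trims RNA primer flaps, read 6.42, 6.28, 6.16 and 6.21 in the knockout mice and 6.44, 6.92, 6.98 and 6.74 in the wild-type mice. Wild-type mouse 1 was almost as low as knockout mouse 1, though the groups did not overlap. The difference of -0.50 ± 0.12 did not pass (adjusted p = 0.0691 by limma) and passed without wild-type mouse 1, at -0.61 with adjusted p = 0.0284. An unused probe set of Fen1 stood at 0.10 ± 0.14, and the mean of both at -0.20. Lig1, the ligase that seals the fragments, read 7.08, 7.28, 7.46 and 7.39 in the knockout mice and 7.74, 7.64, 7.41 and 7.40 in the wild-type mice. Its groups overlapped, with a difference of -0.24 ± 0.11 (adjusted p = 0.29).

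Genes that make deoxynucleotides had among the largest differences of the set, with a median of -0.36. None passed, and 3 of 4 were lower at an unadjusted p under 0.05. At that p, 8.06% of all genes and 13.2% of the brighter genes were lower. Rrm2, the regulated small subunit of ribonucleotide reductase, read 8.04, 8.57, 8.88 and 8.32 in the knockout mice and 8.90, 9.31, 9.12 and 9.05 in the wild-type mice. The knockout mice spread widely, from mouse 1 at the bottom to mouse 3 close under the wild-type range. A difference of -0.64 ± 0.16, or 64.2% of the wild-type level, did not pass (adjusted p = 0.0827 by limma, n = 4 each) and passed without knockout mouse 3, at -0.78 with adjusted p = 0.0433. Averaged with a dim probe set that stood at -0.11 ± 0.09, Rrm2 stood at -0.38. Tyms, thymidylate synthase, read 7.80, 8.00, 7.74 and 7.68 in the knockout mice and 8.15, 8.30, 8.19 and 8.06 in the wild-type mice. Its groups were separate, and the difference was -0.37 ± 0.09 (adjusted p = 0.0799). Rrm1, the large subunit of the reductase, read 8.63, 8.83, 8.98 and 9.21 in the knockout mice and 9.30, 9.42, 9.15 and 9.21 in the wild-type mice. Knockout mouse 4 lay inside the wild-type range, and the difference was -0.36 ± 0.12 (adjusted p = 0.179). Tk1, the cytosolic thymidine kinase, read 9.20, 8.97, 8.97 and 8.53 in the knockout mice and 9.28, 9.05, 9.06 and 9.22 in the wild-type mice. Most of its difference of -0.24 ± 0.13 came from knockout mouse 4 (adjusted p = 0.388).

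Chromatin genes that act behind the fork were lower by sign and did not pass, with 2 of 4 at an unadjusted p under 0.05. Over all genes 8.06% were lower at that p, and over the brighter genes 13.2%. Chaf1a, the large subunit of the histone chaperone CAF-1, read 6.74, 6.59, 6.59 and 6.61 in the knockout mice and 6.73, 7.06, 6.86 and 7.05 in the wild-type mice. Wild-type mouse 1 lay level with knockout mouse 1, and the difference was -0.29 ± 0.09 (adjusted p = 0.159 by limma). Chaf1b, its partner, read 8.04, 7.78, 7.72 and 7.61 in the knockout mice and 8.30, 8.12, 7.82 and 8.05 in the wild-type mice. The groups overlapped through knockout mouse 1 and wild-type mouse 3, with a difference of -0.29 ± 0.12 (adjusted p = 0.259). Uhrf1, which recruits the maintenance methyltransferase to hemimethylated DNA, stood at -0.23 ± 0.13, and the methyltransferase Dnmt1 at -0.17 ± 0.09. At the G1/S step, E2f1, the transcription factor, read 7.89, 7.51, 7.91 and 7.63 in the knockout mice and 7.96, 7.98, 7.69 and 7.76 in the wild-type mice. Cyclin E1, Ccne1, read 7.45, 7.56, 7.50 and 7.44 in the knockout mice and 7.57, 7.60, 7.45 and 7.62 in the wild-type mice. Both overlapped, at -0.11 ± 0.11 and -0.07 ± 0.07, with adjusted p of 0.633 and 0.653.

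**Figure D3:**
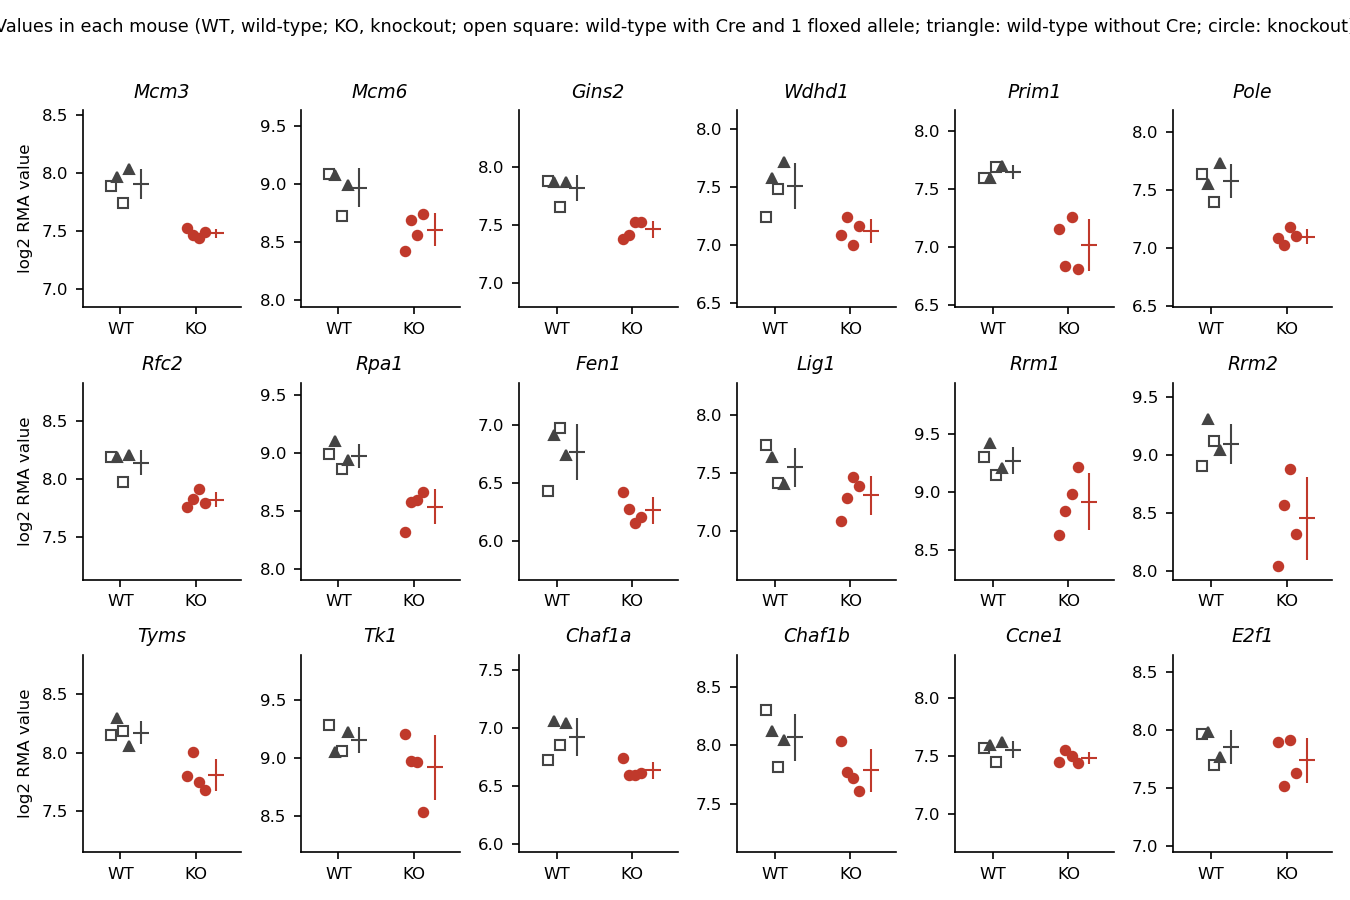
Log2 RMA values of 18 members in each mouse, with group mean and SD (n = 4 each) beside the points and the same span on every vertical axis. Knockout and wild-type points are separate in Mcm3, Gins2, Wdhd1, Prim1, Pole, Rfc2, Rpa1, Fen1, Rrm2 and Tyms, and overlap in the other panels.

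Counted over the 47 members, the lowest of the 8 values was a knockout mouse in 43, shared out at 9, 10, 12 and 12 over knockout mice 1 to 4. The highest value was a wild-type mouse in 44 members, with 12, 14, 1 and 17 in wild-type mice 1 to 4. Over all 22180 genes the lowest value was a knockout mouse in 11011 (3514, 2459, 2028 and 3010 in mice 1 to 4). The highest was a wild-type mouse in 9145 of them (2423, 2129, 2637 and 1956). The median deviation from each gene's mean over all arrays was -0.09, -0.13, -0.11 and -0.12 in knockout mice 1 to 4 and 0.16, 0.19, 0.01 and 0.18 in wild-type mice 1 to 4. Wild-type mouse 3 therefore lay between the other wild-type mice and the knockout mice, and with it left out the median member difference was -0.30. The 4 knockout mice were close to each other on this measure. Over all genes the same median deviation stayed between -0.02 and 0.02.

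**Figure D4:**
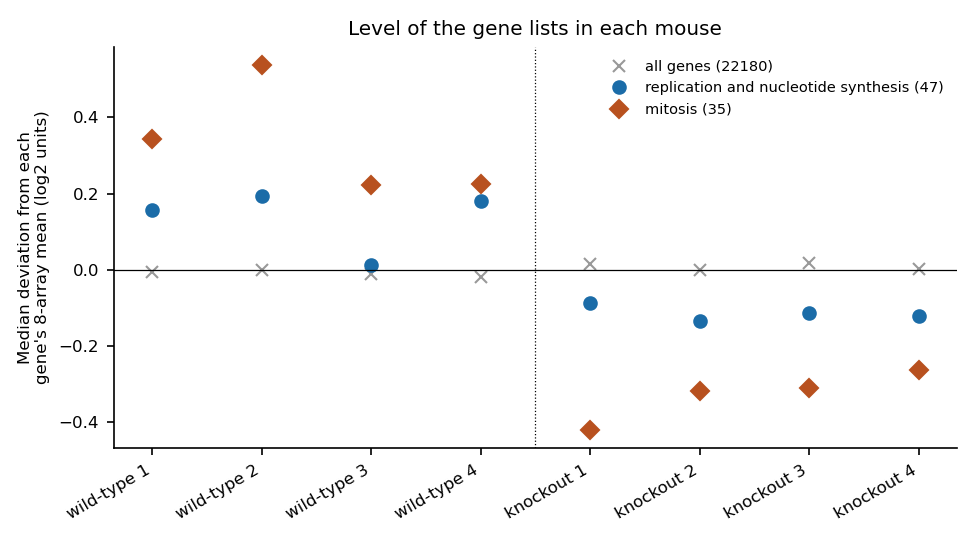
Median deviation of the gene lists in each mouse from each gene's mean over the 8 arrays, in log2 units, for the 47 replication and nucleotide synthesis genes, the 35 mitosis genes and all 22180 genes. The replication genes lie at -0.13 to -0.09 in the knockout mice and at 0.01 to 0.19 in the wild-type mice, with wild-type mouse 3 lowest among the controls.

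The control classes were compared with the knockout separately in a fit with 3 groups. Both comparisons use the same 4 knockout mice, and each control class has 2 mice. Against controls without Cre all 47 members were negative with a median of -0.30, and against controls with Cre and 1 floxed allele 42 were negative with a median of -0.19. At an unadjusted p under 0.05, 26 and 15 members were lower and none higher, where 5.49% and 5.71% of all genes were lower. After limma's adjustment no member passed in either, where 0.144% and 0.0721% of all genes were called lower and 0.0676% and 0.0586% higher. Prim1 stood at -0.63 against the first and -0.62 against the second, Pole at -0.54 and -0.41, Mcm3 at -0.52 and -0.33, and Mcm2 at -0.29 and 0.06. Between the control classes 41 members had a negative difference (with Cre minus without), with a median of -0.10, against 50% of all genes. Limma called none of the 47 and 0% of all genes, and at an unadjusted p under 0.05 4 members and 1.41% of all genes were lower. Wild-type mouse 3 is in that class.

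Other replication genes, from a list of 41 with 37 measured, had a median difference of -0.15, and 3 fell, none rose and 34 did not pass. Of all genes 0.717% were called lower, as were 1.18% of the brighter genes. Esco2, the acetyltransferase that locks cohesin onto new sister chromatids, fell by 0.93 ± 0.10, from 8.53 ± 0.16 to 7.60 ± 0.13 (SD, n = 4 each; adjusted p = 0.00253 by limma). That call passed with any 1 array left out. Top2a, the topoisomerase that untangles copied DNA, fell by 0.88 ± 0.16 (adjusted p = 0.0312), and Rpa3, the small subunit of replication protein A, fell by 0.46 ± 0.10 (adjusted p = 0.0491). The Top2a call was kept without knockout mouse 4 (0.03) and lost without any other array (up to 0.0761), and the Rpa3 call was lost without any 1 array (up to 0.13). Clspn, the checkpoint adaptor claspin, stood at -0.38 ± 0.08 (adjusted p = 0.0545).

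Other nucleotide synthesis genes did not share the direction. Of 27 measured among 32 listed, 13 were negative and 14 positive, with a median of 0.02. None passed, and 4 were lower and 2 higher at an unadjusted p under 0.05, where 8.06% of all genes were lower and 8.61% higher. All 27 lie among the brighter genes, of which 13.2% were lower. The smallest adjusted p were those of Dck, Dtymk and Dut, at 0.0617, 0.0799 and 0.11 by limma. Dck, deoxycytidine kinase, stood at -0.33 ± 0.08, Dtymk, thymidylate kinase, at -0.46 ± 0.11, and Dut, the dUTPase, at -0.31 ± 0.09. These 3 were among 4 genes of the list with separate groups in the lower direction, where 5.49% of all genes and 9.5% of the brighter genes lay. Rrm2b, described at the end, had separate groups in the other direction, where 5.26% of all genes lay. Prps2, which makes the ribose phosphate donor for nucleotides, stood the other way at 0.25 ± 0.08 (adjusted p = 0.164). Dtymk passed without knockout mouse 2 (adjusted p = 0.0471).

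Among 29 other genes of G1/S control 2 fell and 27 did not pass, with a median of -0.08. Lower calls made up 0.717% of all genes and 1.18% of the brighter genes. Ccna2, cyclin A2 of S phase and G2, fell by 0.71 ± 0.12 (adjusted p = 0.0251 by limma), and the CDK4/6 inhibitor gene Cdkn2c, itself an E2F target, fell by 0.45 ± 0.09 (adjusted p = 0.0352). Skp2, the ubiquitin ligase subunit that degrades p27, stood at -0.42 ± 0.10 and the RB family gene Rbl1 at -0.39 ± 0.11. The Ccna2 call was kept when knockout array 4 or wild-type array 3 or 4 was dropped and lost without any other array (up to 0.0646), and the Cdkn2c call was kept without wild-type mouse 4 alone (0.0431; up to 0.104 otherwise).

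Mitosis genes differed by more. Of 35 measured 24 fell and 11 did not pass, with a median of -0.70, or 61.6% of the wild-type level, and in 32 of them the groups were separate. Over all genes 0.717% were called lower and 5.49% had separate groups in that direction, and over the brighter genes 1.18% and 9.5%. Nusap1 and Prc1, which bundle spindle microtubules, fell by 0.94 ± 0.11 and 0.70 ± 0.09, the kinesin gene Kif2c fell by 0.80 ± 0.09 and the kinetochore gene Nuf2 fell by 0.88 ± 0.11 (adjusted p of 0.0032 to 0.00576 by limma). Each of these 4 calls passed with any 1 array left out, while dropping knockout array 1 gave a count of 15 and dropping wild-type array 2 gave 14. It was 9 against controls without Cre, 2 against controls with Cre, 6 with all probe sets tested and 7 without both mouse 1 arrays. Lower calls over all features in these settings numbered 76, 60, 32, 16, 25 and 37, in the same order, beside 159 in the main comparison. The difference between the replication and mitosis medians was not tested. Their promoters also differ in letters: 1 of 31 mitosis windows (3.23%) held the 8-base E2F motif and 25 (80.6%) the CHR element, with CCAAT in 77.4%. The CHR element is shown in capitals in Cdc20 and Prc1, whose stretches end at the base before the start site.
Cdc20, chr4:118437344-118437403, minus strand: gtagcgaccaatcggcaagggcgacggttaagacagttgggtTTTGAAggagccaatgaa
Prc1, chr7:80294416-80294475, plus strand: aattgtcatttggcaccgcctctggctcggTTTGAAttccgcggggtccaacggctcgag

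The tissue label was checked against cell type markers, which also cover other cells that could divide in this liver. Of 12 hepatocyte markers 11 averaged above 10 log2 units, and Ass1 lay between 6.70 and 8.42. Serpina1a had the smallest adjusted p of these markers, at -0.32 ± 0.12, and none passed. Their summed linear level was 104800 to 107418 in the knockout mice and 107633 to 109071 in the wild-type mice. Erythroid progenitor markers (9 of 15 measured) summed to 760.3 to 803 and 694 to 798, with none past the threshold and Tal1 at 0.22 ± 0.12. Myeloid progenitor markers (11 of 11) were higher by sign in all 11 and summed to 839.8 to 973 and 773 to 865, with Ms4a3 at 0.20 ± 0.08. Macrophage markers (12 of 12) summed to 11482 to 14810 and 10270 to 13784, with Cd68 at 0.36 ± 0.09. Lymphocyte markers (10 of 12) were higher by sign in all 10 and summed to 897 to 1051 against 797 to 844, with Cd3e at 0.37 ± 0.12. Endothelial markers (10 of 10) summed to 10855 to 11950 and 9602 to 10971, stellate cell markers (10 of 10) to 9342 to 9975 and 9518 to 9712, and cholangiocyte markers (7 of 10) to 613 to 735 and 663 to 769. Lyve1, Reln and Sox9 had the smallest adjusted p of these lists, at 0.37, -0.18 and -0.29. No marker of any list passed. The lymphocyte and hepatocyte sums do not overlap between the groups. Nor does the sum over all genes, which was lower in the knockout mice (8805120 to 8938540) than in the wild-type mice (9008570 to 9092960), the direction of the hepatocyte sum. The part of these cell types in the results above was not tested.

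Array medians lay between 5.79 and 5.89, and the lowest correlation across genes between arrays of a group was 0.992. Sco1, the deleted gene, was lower in each knockout mouse (7.48 to 7.72) than in each wild-type mouse (7.84 to 8.19), with a difference of -0.41 ± 0.09 (adjusted p = 0.0633 by limma). Which part of the gene its probes read was not given in the sources used here. The mean of 3 Y-linked genes was 7.36 in knockout mouse 4 and 8.60 to 8.86 in the other mice, and with that mean as a covariate 1 member, Dbf4, fell (adjusted p = 0.0431), while Prim1, Pole and Mcm3 stood at 0.0556, 0.0591 and 0.0659. That mouse's part in the results was otherwise measured by leaving it out, as given above.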

How the data were processed

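The authors deposited log2 expression values for 39137 probe sets on 8 arrays, made by RMA with oligo version 1.24 per the submitters' processing notes. The log2 scale was inferred from the method and the range of 1.28 to 13.88. RMA equalizes the arrays' distributions and compresses large differences, and for the chip definition the sources used here gave nothing. Platform annotation named 23521 probe sets with 1 symbol, and the brightest stood for each of 22180 genes. Groups followed the titles. Differences came from limma (version 3.58.1, R 4.3.3) by lmFit and eBayes with a term for group, two-sided, adjusted by Benjamini-Hochberg over 22180 genes at 0.05, and tested on simulated data. A fit with 3 groups separated the control classes. Members, lists and alternatives were chosen with earlier results of these data known. All members were accounted for. Values per mouse were printed for the 2 members of smallest adjusted p in each role and all nucleotide synthesis members, and Pcna was added after its values were seen. Named beside them were the 4 genes of smallest adjusted p from each other list and 1 from each marker list. The alternatives covered variance model, scaling, dim genes, probe sets, covariates, control class and arrays left out. The number of arrays limits the precision. Motif counts used Python 3.11.15 with pandas 2.3.3, and matplotlib 3.10.9 drew the plots.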

Additional observations from a re-analysis of the deposited data

Results flagged for a closer look

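Among the 36 groups of 4 values behind the members described mouse by mouse, 3 held a mouse far from the others, where about 5% of groups are picked out by chance. Wild-type mouse 3 read 7.65 for Gins2 against 7.87 to 7.88 in the other wild-type mice, and 7.98 for Rfc2 against 8.19 to 8.21. Knockout mouse 1 read 6.74 for Chaf1a against 6.59 to 6.61 in the other knockout mice.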

How the results depend on the processing

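No member rose and the median member difference stayed between -0.30 and -0.19 under the 21 alternatives, and 41 of 47 members kept a negative difference in each. The count of members that fell, 3 in the main comparison, became 6 with a trended robust variance, 5 with arrays centred on their median, 9 among genes above the median level, 6 without the dimmest genes (a milder filter), 5 with array weights, 1 with the Y-linked covariate, 2 with renewed quantile normalization (Prim1 and Pole), 2 with probe sets averaged per gene (Prim1 and Mcm3), 0 when all probe sets were tested, 1 without both mouse 1 arrays, and 0 against either control class alone. With single arrays left out it was 0 to 2. Over all genes, the lower and higher counts were 159 and 96. Lower genes numbered 300 (trended variance), 271 (centring), 319 (above the median level), 301 (without the dimmest genes), 245 (array weights), 25 (all probe sets), 37 (without mouse 1 arrays), 32 (controls without Cre) and 16 (controls with Cre). Higher genes numbered 159 with the trended variance, 155 without the dimmest genes, 45 with the covariate, 17 with all probe sets, 28 without mouse 1 arrays, and 15 and 13 against the control classes. Centring gave 271 lower and 86 higher genes. Leaving out single arrays gave 60 to 119 lower and 29 to 65 higher genes. Some of these settings use fewer arrays or test more features, which can lower such counts. The cause of the changes was not tested in any setting. With mouse number as a replicate block 2 members fell, Prim1 (adjusted p = 0.0348) and Rrm2 (0.0432), and Mcm3 (0.0652) and Pole (0.0648) did not pass. Deviations of same-numbered mice correlated at r of 0.27 for mouse 1 and -0.02, 0.03 and -0.10 for mice 2 to 4. Wild-type mouse 1 was the closest partner of knockout mouse 1, while the closest partners of knockout mice 2 to 4 bore other numbers. The numbers were not treated as pairs, and counts without both mouse 1 arrays are given above.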

Other observations

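The members without a probe set of their own were read by probe sets that also carry another gene's symbol. The one shared by the clamp loader gene Rfc4 and Eif4a2 stood at -0.39 ± 0.08 log2 units, and the one shared by cyclin E2, Ccne2, and Ints8 stood at -0.49 ± 0.10 (SE, n = 4 each). In both, every knockout mouse lay below every wild-type mouse, and neither passed over all 39137 probe sets (adjusted p of 0.113 and 0.109 by limma).

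Rrm2b, named here after its values were seen, encodes the p53-induced small subunit of ribonucleotide reductase that serves outside S phase. It read 6.79, 6.67, 6.74 and 6.63 in the knockout mice and 6.55, 6.52, 6.57 and 6.34 in the wild-type mice. The groups were separate in the direction opposite to Rrm2, at 0.21 ± 0.08, and the difference did not pass (adjusted p = 0.219 by limma).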
